A study of Mus musculus with 5 samples.

Results

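*Btg1* and *Btg2*, a pair of antiproliferative genes of the BTG/TOB family, are described here by RNA polymerase II occupancy in mouse Th2 cells. They were chosen by name with their peak heights and summit positions in these libraries already known, so those values are given as description. They are 2 of 11608 genes listed, and each was accepted only where its line lay at the gene's own locus on mm9. ChIP-Seq used an antibody to RNA Polymerase II phosphorylated on serine 2 of its repeated tail, the form found on transcribing polymerase. Cells were *Parp14*+/+ (wild type) or *Parp14*-/- (knockout), each left untreated or treated with PJ34, which makes 4 conditions with 1 library each. The wild-type mice were C57BL6 and the knockout mice were on that background, all 6 to 8 weeks old. Naive CD4+ T cells from spleen were activated through CD3 and CD28 with IL-4 at 10 ng/ml and an antibody to IFN-γ for 3 days, and expanded with IL-2 and IL-4 for 4 days. PJ34, an inhibitor of PARP enzymes, is given at 10 µM in the sample labels and at 5 µM in the study's methods, and the dose is therefore uncertain. The labels call the source naive CD4+ T cells, although the cells had been differentiated. An Input library, a mixture of both genotypes, was not used here. With no replicates there is no test and no p-value, and intervals cover counting error only.

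BTG and TOB proteins share an amino-terminal BTG domain that binds the CNOT7 and CNOT8 deadenylases of the CCR4-NOT complex, and through it they promote removal of poly(A) tails from mRNA. BTG1 and BTG2 are known for keeping T cells quiescent by lowering the amount of mRNA, and their transcripts decline upon T cell activation. *Btg2* is also a classical p53 target and an immediate early gene, first cloned as *TIS21* and *PC3*, and *BTG1* is often mutated in B cell lymphoma.

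*Parp14*, the gene targeted in the knockout, checks the genotype labels. Its average peak height was 8 in untreated wild type, 11 in treated wild type, 6.67 in untreated knockout and 6.67 in treated knockout. SICER intervals that overlapped the gene added up to 27450 bp and 21600 bp in the wild-type libraries, and to 3450 bp and 3600 bp in the knockout libraries, where a single interval lay at the 5′ end of the gene, with a height of 13. The wild-type intervals at that end were lower, at 9 untreated and 11 treated, so height there ran opposite to covered length. Peak height is read here as the number of overlapping fragments at the highest point of an enriched interval, averaged over the active regions of a gene and not summed over gene length. The files do not define it, and among genes with 1 active region whose body an interval of the track overlaps, it equalled the track height in 85.4% to 90.9%. The counting intervals rest on this reading.

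*Btg1* had a peak height of 68 in untreated wild type (95% Poisson interval 52.8 to 86.2), 57 in treated wild type (43.2 to 73.9), 81 in untreated knockout (64.3 to 101) and 82 in treated knockout (65.2 to 102). Both knockout libraries were above both wild-type libraries, and the intervals of all 4 heights overlapped. *Btg1* was among the tallest genes of every library. It ranked 70 in untreated wild type, 90 in treated wild type, 48 in untreated knockout and 33 in treated knockout, of 11608 genes. Its height was 5.18 to 7.81 times the median height of genes with an interval in the same library.

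*Btg2* had a peak height of 14 in untreated wild type (7.65 to 23.5), 25 in treated wild type (16.2 to 36.9), 23 in untreated knockout (14.6 to 34.5) and 30 in treated knockout (20.2 to 42.8). The untreated wild-type library was the lowest and the PJ34-treated knockout library the highest, again with overlapping intervals. *Btg2* ranked 2163 in untreated wild type, a height it shared with other genes so that 247 had the same value, 749 in treated wild type, 931 in untreated knockout and 492 in treated knockout. *Btg1* was therefore the taller of the pair in all 4 libraries.

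**Figure D1:**
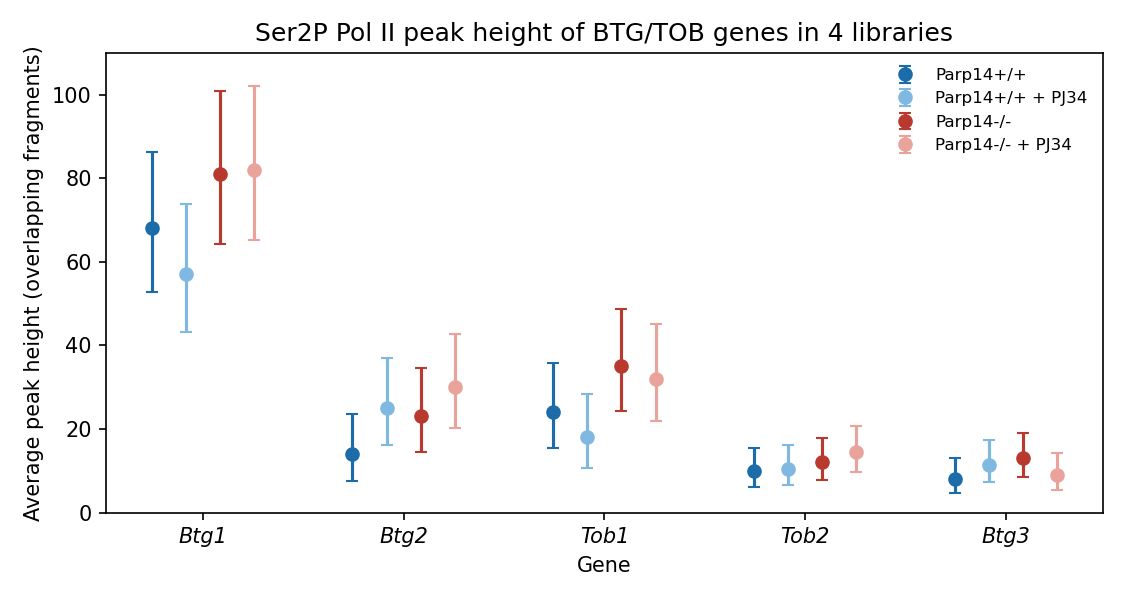
Average peak height (overlapping fragments, vertical axis) of 5 BTG/TOB genes in the 4 libraries, 1 point a library, with exact 95% Poisson intervals of the summed heights. *Btg1* is the tallest of the 5 in each library, at 68, 57, 81 and 82, and the untreated wild-type point of *Btg2*, at 14, is its lowest.

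The effect of genotype was read as the ratio of wild type to knockout, with the limits of 1.4 and 0.7 used in the study. The study also used 1.2 and 0.83, for genes with tall peaks on a scale other than the deposited heights and for PJ34 in both genotypes, and calls here use 1.4 and 0.7 alone. For *Btg1*, 68 against 81 gave a ratio of 0.84 (95% Clopper-Pearson interval 0.599 to 1.17). With PJ34 in both libraries, 57 against 82 gave 0.695 (0.487 to 0.987), just below the limit of 0.7. For *Btg2*, 14 against 23 gave 0.609 (0.29 to 1.23) without PJ34, and 25 against 30 gave 0.833 (0.47 to 1.47) with it. Both genes were thus lower in wild type in both comparisons, and each was below the limit in 1 of them. Their heights were known when they were chosen, so the shared direction is a description. Of the 8 intervals of the genotype and PJ34 ratios, that of *Btg1* with PJ34 was the 1 that left out a ratio of 1. In both genes the highest point in treated knockout lay over 1 kb from that in the other libraries. Ratios with treated knockout, this one included, therefore compare different positions.

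Over all genes with an interval in either library, 9.96% fell below 0.7 and 12.2% lay above 1.4 in the untreated genotype comparison. With PJ34, 5.17% fell below 0.7 and 22.3% lay above 1.4. A ratio below 1 was found for 42.6% of genes untreated and 28.0% with PJ34, and one above 1 for 49.6% and 65.2%. The median ratio was 1.0 untreated and 1.15 (0.2 on the log2 scale) with PJ34, and relative to untreated wild type the median was 1.04 in treated wild type and 0.909 in treated knockout. With each library scaled to its median ratio to untreated wild type, *Btg1* had a ratio of 0.606 and *Btg2* of 0.726 in the PJ34-treated genotype comparison. After this scaling 10.8% of all genes fell below 0.7 and 12.5% lay above 1.4. As deposited, among 1436 genes with a height of at least 20 in one of these libraries, 9.4% fell below 0.7 and 16.9% lay above 1.4. *Btg1* passed that height in both. Among 1528 such genes in the untreated genotype comparison, 14.5% fell below 0.7 and 14.1% lay above 1.4. *Btg2*, at 14 and 23, passed that height in knockout alone.

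The effect of PJ34 was read as the ratio of untreated to treated cells of one genotype. In wild-type cells, *Btg1* was higher untreated, with a ratio of 1.19 (0.827 to 1.73), whereas *Btg2* was lower untreated, with a ratio of 0.56 (0.269 to 1.12). In knockout cells, the ratio of *Btg1* was 0.988 (0.718 to 1.36) and that of *Btg2* was 0.767 (0.425 to 1.37). In height, *Btg2* was thus higher with PJ34 in both genotypes, by 1.79-fold in wild type and 1.3-fold in knockout cells, while the *Btg1* ratios lay on either side of 1. In wild type, 9.90% of genes fell below 0.7 and 6.69% lay above 1.4, and *Btg2* was below. In knockout cells, 5.0% fell below 0.7 and 14.2% lay above 1.4, and neither gene passed 1.4 or 0.7. *Btg2* lay below 0.83, as did 872 of 6861 genes by the same rule. The median ratio of all genes in knockout cells was 1.09 (0.13 on the log2 scale). With libraries scaled as above *Btg2* had a ratio of 0.697 and *Btg1* of 0.898, and division by the median ratio itself gave 0.701 for *Btg2*, so it lay at the limit. After scaling, 8.5% of all genes fell below 0.7 and 8.28% lay above 1.4. The genotype and PJ34 ratios share libraries. In particular, the untreated wild-type height of 14 enters both *Btg2* ratios that passed a limit.

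The SICER intervals over *Btg1* were far longer than the gene. On mm9 the annotated gene, on the forward strand of chr10:96079635-96085447, is 5813 bp long with 2 exons, and the gene table lists a shorter model that ends at 96082261. The interval ran from 96078151 to 96110850 in untreated wild type (32700 bp) and from 96078751 to 96111300 in treated wild type (32550 bp). In untreated knockout it ran from 96077401 to 96107100 (29700 bp), and a separate interval of 6000 bp with a height of 10 began at 96107851. In treated knockout it ran from 96076201 to 96111900 (35700 bp). The shortest of these intervals was in untreated knockout, and with the separate interval added the covered length there was 35700 bp, as in treated knockout. Only 1.73% to 3.24% of the intervals of a library were longer.

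Most of that length lay past the 3′ end of *Btg1*. The interval went on for 25403 bp past the annotated gene end in untreated wild type, 25853 bp in treated wild type, 21653 bp in untreated knockout and 26453 bp in treated knockout. No other gene is annotated or listed within 100 kb. For comparison, intervals that touched 1 annotated gene alone were taken from genes with 1 active region and 1 interval in every library, a measure chosen after the *Btg1* intervals had been seen. There were 206 such genes in untreated wild type and 226 in treated knockout, with a median reach past the gene end of 2973 bp and 2709 bp. Among them *Btg1* reached furthest in untreated wild type, untreated knockout and treated knockout, and 1 gene of 219 reached further in treated wild type. A long reach needs a long gene-free stretch behind the gene, so this comparison favours isolated genes such as *Btg1*.

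*Btg2* lies on the reverse strand of chromosome 1, with an annotated length of 3951 bp (chr1:135971747-135975697) and 2 exons. Its interval was 7200 bp long in untreated wild type, 7050 bp in treated wild type, 8250 bp in untreated knockout and 9450 bp in treated knockout. The intervals of the knockout libraries were the longer ones, and between 20.9% and 34.6% of all intervals of a library were longer still. As ratios of interval length in place of height, the 8 *Btg1* and *Btg2* comparisons lay between 0.746 and 1.1 and none passed a limit. The untreated genotype ratio of *Btg1* was 1.1 for length, on the other side of 1 from its height. With intervals within 1 kb added, an alternative chosen after seeing the data, it was 0.916, on the same side as height. The wild-type PJ34 ratio of *Btg2* was 1.02 for length by both measures, against 0.56 for height. The reach past the annotated end of *Btg2* was 2296 bp, 2596 bp, 3046 bp and 4696 bp in the same order of libraries, and 27.9% to 57.8% of the comparison genes reached further. Within 100 kb the annotation holds 3 further protein-coding genes, *Fmod*, *Gm8618* and *Chit1*. None of them has a line in the gene table, and no other interval lay in that range in the 4 libraries.

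**Figure D2:**
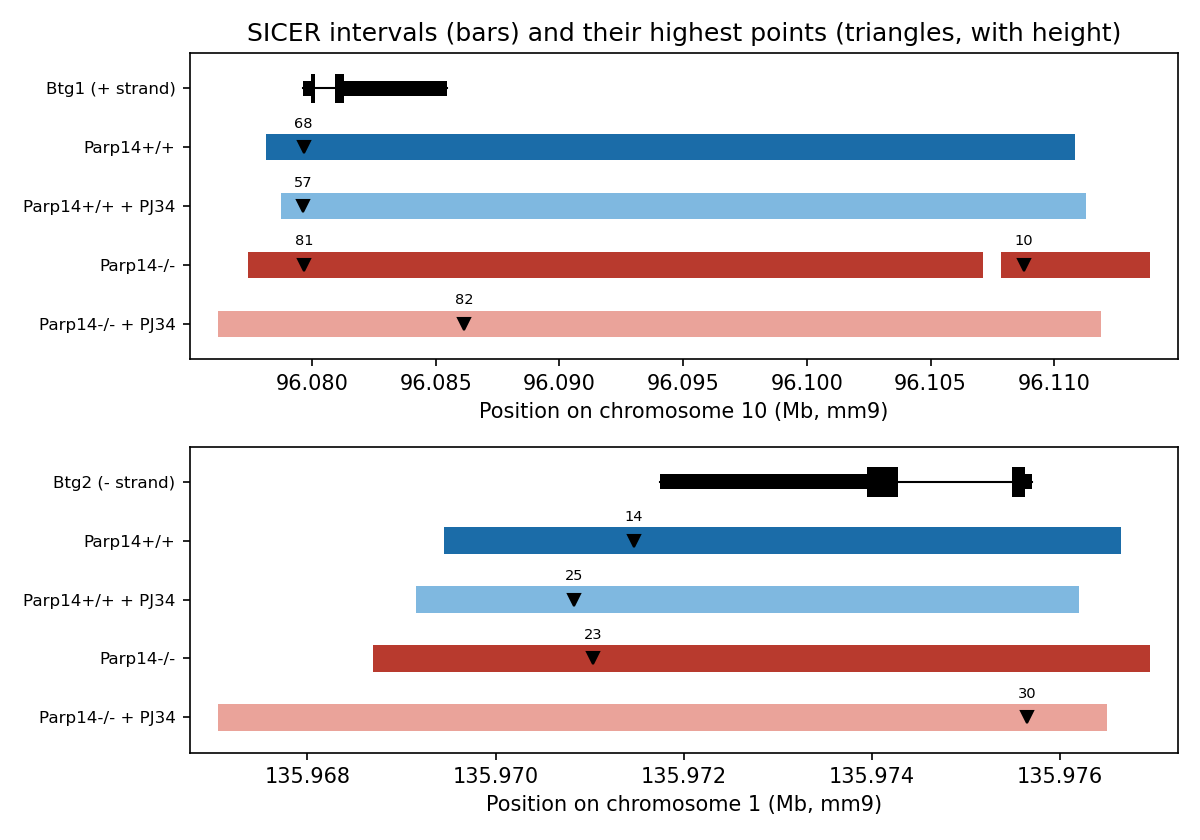
Maps of *Btg1* (top) and *Btg2* (bottom) on mm9, with position in Mb on the horizontal axis, the gene model in black with coding parts thicker, the SICER intervals of each library as bars, and the highest point of each interval as a triangle with its height. The bars that cover *Btg1* run from 21653 to 26453 bp past the annotated end of the gene, and in treated knockout the triangle sits at the opposite end of both genes from the other 3 libraries.

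The highest point of the *Btg1* interval was at the transcription start in 3 libraries, 3 bp downstream of the listed gene start in untreated wild type, 13 bp upstream in treated wild type and 19 bp downstream in untreated knockout. These points are in the 5′ UTR of the annotated transcript. Of all summits, 87.7% lay at multiples of 16 bp, so differences of this size are not resolved. In treated knockout the highest point was 6483 bp downstream, 697 bp past the annotated gene end. For *Btg2* the arrangement was the opposite one. The highest point was 4260 bp from the gene start in untreated wild type, 4900 bp in treated wild type and 4692 bp in untreated knockout, which is 275, 915 and 707 bp past the annotated 3′ end. In treated knockout it was 84 bp from the start, in the 5′ UTR.

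For both genes, then, the PJ34-treated knockout library had its summit over 1 kb away from those of the other 3 libraries, which lay within 1 kb of each other. This was so for 77 of 1115 genes with 1 active region and 1 interval in every library (6.91%), and for 54 to 73 genes when another library was the one apart. The grouping was made after the summits had been seen. In 390 of the 1115 genes (35.0%) all 4 summits lay within 1 kb. The deposited heights of *Btg1* and *Btg2* equal those at the highest points of their intervals, so their ratios with treated knockout compare different positions. Heights at a fixed position were not analysed here.

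Among the other family members, *Tob1*, *Tob2* and *Btg3* had a line in the gene table, and *Btg4* had none at its locus. *Tob1*, another antiproliferative factor of resting T cells, had heights of 24 in untreated wild type, 18 in treated wild type, 35 in untreated knockout and 32 in treated knockout. Like *Btg1* it was higher in both knockout libraries, with genotype ratios of 0.686 (0.39 to 1.19) and 0.562 (0.297 to 1.03), and its summit was within 16 bp of the gene start in all 4 libraries. *Tob2* had average heights of 10, 10.5, 12 and 14.5 in the same order, over 2 active regions, with its genotype ratios at 0.833 and 0.724. *Btg3* had 8, 11.5, 13 and 9, with genotype ratios on either side of 1, at 0.615 and 1.28.

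The 3 other measured family members, counted without *Btg1* and *Btg2*, all had an untreated genotype ratio below 1, with a median of 0.686 and 2 below the limit (*Btg3* and *Tob1*), where 42.6% of all genes were below 1 and 9.96% below the limit. With PJ34, 2 of 3 were below 1, with a median of 0.724 and 1 below the limit (*Tob1*), where 28.0% of all genes were below 1 and 5.17% below the limit. Scaling to the median ratio left 2 of 3 below 1 with PJ34 and brought *Tob2* below the limit with PJ34, where its ratio of 0.631 was the median. After scaling, 49.9% of all genes were below 1 in that comparison and 10.8% below the limit. The PJ34 ratios of these 3 genes had medians of 0.952 in wild type and 1.09 in knockout cells, against 0.96 and 1.09 over all genes.

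The CCR4-NOT subunits, whose deadenylases BTG proteins bind, were all listed and mostly low. Of the 11, 10 had an interval in the untreated genotype pair, 4 with a ratio above 1 and 6 below, with a median of 0.906. Of all genes, 49.6% were above 1 and 42.6% below, with a median of 1.0. *Cnot8* lay above 1.4 and *Cnot11* below 0.7, where 12.2% and 9.96% of all genes lay. With PJ34 the median was 1.2 (1.05 scaled) against 1.15 over all genes, and none of 10 passed a limit, against 22.3% above and 5.17% below. Heights of the tallest subunits were 13, 13, 20 and 15 for *Cnot11*, 12.5, 15, 15.5 and 11.5 for *Cnot3*, and 14, 13, 12 and 15 for *Cnot7*, which encodes a catalytic deadenylase, in the order untreated wild type, treated wild type, untreated knockout and treated knockout. The PJ34 ratios of the list had medians of 0.989 in wild type, or 1.03 after scaling, and 1.24 in knockout cells. Over all genes they were 0.96 and 1.09 as deposited.

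Among 12 further deadenylation factors and partners of BTG/TOB proteins, the untreated genotype ratio was above 1 in 7 of 10 with an interval, against 49.6% of all genes, with a median of 1.15. *Pan2* and *Zfp36l2* lay above 1.4, as did 12.2% of all genes, and *Pabpc1* and *Zfp36* below 0.7, as did 9.96%. With PJ34 the median was 1.11, or 0.967 after scaling, so the direction of the list depended on scaling. As deposited, *Zfp36l1* alone lay below 0.7, with 5.17% of all genes there. After scaling *Zfp36*, at 0.693, also lay below 0.7, with 10.8% of all genes there. *Pabpc1*, encoding the main cytoplasmic poly(A)-binding protein, had heights of 27, 41, 44 and 45 in the order of libraries above. *Zfp36* and *Zfp36l1* encode proteins that bring deadenylases to AU-rich mRNA, and had heights of 23, 35, 37 and 44, and of 34, 28, 39 and 49. *Pabpc1* and *Zfp36* were, like *Btg2*, lowest in untreated wild type, whereas *Zfp36l1* and most of the list were lowest in another library. The medians of the PJ34 ratios of the list were 0.908 in wild type and 0.92 in knockout cells, against 0.96 and 1.09 over all genes.

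The list of T cell quiescence factors was described over 9 genes, all with a line. All 7 with an interval in the untreated genotype pair had a ratio below 1, with a median of 0.686 and 3 called below 0.7 (*Klf2*, *Foxo1* and *Tob1*), against 42.6% of all genes below 1 and 9.96% called below 0.7. *Cdkn1b*, at 0.667, was also below 0.7 but had no interval in untreated knockout, the higher library. With PJ34 they were split, 4 above and 3 below 1 with a median of 1.05, or 3 and 4 with a median of 0.915 after scaling. Over all genes 65.2% were above and 28.0% below 1, or 50.1% and 49.9% after scaling. *Klf2* and *Tob1* were below 0.7 and *Cdkn1b* above 1.4, against 5.17% and 22.3% of all genes. After scaling *Klf2* and *Tob1* were still below 0.7, but *Cdkn1b*, at 1.25, no longer passed, against 10.8% and 12.5% of all genes. *Klf2*, a transcription factor of resting and recirculating T cells, had heights of 10, 8, 18 and 16. *Il7r*, the IL-7 receptor chain, had 47, 42, 62 and 34, so that its PJ34-treated knockout height was its lowest. The PJ34 ratios had medians of 1.13 in wild type and 1.27 in knockout cells, against 0.96 and 1.09 over all genes. In knockout cells all 6 with an interval were above 1, as were 59.5% of all genes. *Foxo1*, *Il7r* and *Slfn2* lay above 1.4 there, as did 14.2% of all genes. After scaling 5 were above 1, against 48.5% of all genes. *Slfn2*, at 1.3, then no longer passed, with 8.28% of all genes above 1.4.

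*Btg2* is known as a target of p53, and the other p53 targets were described for that reason. Of 14, *Perp* and *Ei24* had no line. The untreated genotype ratio was above 1 in 10 of 11 with an interval, against 49.6% of all genes, with a median of 1.33 and 4 above the limit (*Cdkn1a*, *Phlda3*, *Zmat3* and *Plk2*), where 12.2% of all genes lay. With PJ34 it was above 1 in 8 of 10, or 7 after scaling, with a median of 1.32 (1.15 scaled). Of all genes 65.2% were above 1, or 50.1% after scaling. With PJ34, *Ccng1*, *Bbc3*, *Sesn2* and *Zmat3* lay above 1.4, as did 22.3% of all genes. The same 4 lay above 1.4 after scaling, as did 12.5% of all genes. *Cdkn1a*, the cyclin-dependent kinase inhibitor p21, had heights of 54, 33, 30 and 37. *Bax*, a mediator of apoptosis, had 20, 25, 15 and 20, and *Zmat3* had 9.33, 9.33, 4.67 and 5.33. The PJ34 ratios had medians of 0.857 in wild type and 0.843 in knockout cells, or 0.894 and 0.767 after scaling. Over all genes they were 0.96 and 1.09 as deposited. In wild type *Cdkn1a* and *Phlda3* lay above 1.4, as did 6.69% of all genes. In knockout cells *Mdm2* lay below 0.7, as did 5.0% of all genes. There 5 of 8 with an interval were below 1, or 7 after scaling, against 31.5% and 50.5% of all genes.

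All 14 immediate early genes had an interval in each comparison. Without PJ34, 5 had a genotype ratio above 1 and 8 below, with a median of 0.894. *Fos*, *Fosb*, *Junb*, *Egr1* and *Myc* lay below 0.7 and *Nr4a1* above 1.4. Of all genes, 49.6% were above 1 and 42.6% below, 9.96% below 0.7 and 12.2% above 1.4. With PJ34, 7 were above and 7 below 1, or 3 and 11 after scaling, with a median of 0.954 (0.831 scaled). *Nr4a1* and *Myc* lay below 0.7, and *Ier3* and *Dusp1* above 1.4. After scaling *Fos*, at 0.639, also lay below 0.7, and *Ier3*, at 1.26, no longer passed. The shares of all genes were 65.2% above 1 and 28.0% below, or 50.1% and 49.9% after scaling. Below 0.7 lay 5.17% and above 1.4 lay 22.3%, or 10.8% and 12.5% after scaling. *Egr1*, a zinc finger transcription factor induced within minutes of stimulation, had heights of 57, 124, 115 and 141. *Junb* had 65, 73, 125 and 90, and *Myc*, which drives growth of activated T cells, had 40, 42, 71 and 62. The wild-type PJ34 ratio was above 1 in 4 and below 1 in 10 of these genes, against 38.9% and 52.6% of all genes, with a median of 0.907, and the median in knockout cells was 1.06, or 0.966 after scaling. Over all genes these medians were 0.96 and 1.09 as deposited.

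Likeness of pattern was measured by the Euclidean distance between the 4 log2 heights, each gene centred on its own mean, over 1491 genes with an interval in all 4 libraries and a height of at least 20 in one. The genes nearest to *Btg1* were *Ppp1r15a* (22, 19, 28 and 27, distance 0.07), *Grb7* (17, 15, 22 and 21, 0.089), *Ndufb10* (34, 26, 40 and 38, 0.114), *Mrps18b* (55, 47, 62 and 70, 0.114) and *Glt8d1* (18.5, 15.5, 20 and 22.5, 0.125). All had both knockout heights above both wild-type heights. The genes nearest to *Btg2* were *Acbd4* (11, 18, 17 and 24, distance 0.124), *Zfp36* (0.189), *Calm2* (17, 30, 29 and 43, 0.203), *Srsf7* (32, 46, 49 and 62, 0.226) and *Egr1* (0.238). Each had its lowest height in untreated wild type and its highest in treated knockout. *Btg1* and *Btg2* were 0.82 apart, and of the 1491 genes, 1114 were nearer to *Btg1* than *Btg2* was and 446 nearer to *Btg2* than *Btg1* was. With 4 libraries and counts of this size, close distances are a description. The order of libraries that these genes share with *Btg1* or *Btg2* comes from choosing them by distance.

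The cell type was checked with marker genes. The Th2 genes *Gata3*, *Il4*, *Il5* and *Il13* had an interval in all 4 of 4 in both wild-type libraries and in 3 of 4 in both knockout libraries, where *Il5* had none. Their summed heights were 180 in untreated wild type, 151 in treated wild type, 95 in untreated knockout and 77 in treated knockout, with *Gata3* the tallest on average, at 60, 58, 45 and 43. *Il4* had 61, 39, 29 and 18, *Il13* had 38, 33, 17 and 10, and *Il5* had 21, 21, 4 and 6. These genes were lower in knockout libraries, opposite in direction to *Btg1* and *Btg2*, and their part in the *Btg1* and *Btg2* ratios was not tested. More polymerase per cell and more cells of one kind cannot be told apart in a bulk library.

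The T helper genes *Cd3e*, *Cd4* and *Cd28* summed to 34.5, 40, 33 and 29.5 in the same order, with *Cd28* the tallest. Each had an interval in every library, except that *Cd4* had none in untreated knockout. The Th1 genes *Tbx21* and *Ifng* summed to 50, 42, 42 and 33, with *Tbx21* the tallest and intervals for both genes in every library. *Cd8a* had no interval in any library, with heights of 3 to 6, and *Cd8b1* had no line. Of the B cell genes, *Ms4a1* and *Pax5* had no interval and heights of 4 to 6. *Cd79a* was listed at 38, 36, 34 and 28, but an interval touched the gene itself in treated wild type alone, with its highest point 6018 bp upstream and outside the gene. The summed heights of these 3 B cell genes were 48, 45.5, 43 and 38. Of the myeloid genes, *Csf1r* had heights of 8, 8.5, 6 and 5.5, with an interval in all libraries but untreated knockout, and *Itgam* had 1, 4, 0 and 2 without an interval, which sum to 9, 12.5, 6 and 7.5, and *Lyz2* and *Cd14* had no line.

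The promoters are shown because the intervals of all 4 libraries covered them and because the summit lay at the transcription start in 3 libraries for *Btg1* and in 1 for *Btg2*. Both genes were matched by symbol in RefSeq promoter windows (GRCm38.p6), with 1 window each, and the 250 bases before the start matched NCBIM37, the mm9 assembly, exactly once, at chr10:96079385-96079634 on the forward strand for *Btg1* and at chr1:135975733-135975982 on the reverse strand for *Btg2*. Both windows are upstream of the annotated transcripts. Capitals mark matches on both strands to the motifs searched. These were the CCAAT box, the TATA box as TATAAA, the cyclic AMP response element as TGACGTCA, the GC box as GGGCGG, the letters TTCNNNGAA, and TTC followed by GAA with 4 bases between.
Btg1: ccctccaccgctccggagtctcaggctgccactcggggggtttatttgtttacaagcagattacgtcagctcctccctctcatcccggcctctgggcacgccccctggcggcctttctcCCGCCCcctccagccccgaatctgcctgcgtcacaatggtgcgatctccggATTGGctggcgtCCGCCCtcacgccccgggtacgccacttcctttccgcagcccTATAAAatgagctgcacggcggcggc
Btg2: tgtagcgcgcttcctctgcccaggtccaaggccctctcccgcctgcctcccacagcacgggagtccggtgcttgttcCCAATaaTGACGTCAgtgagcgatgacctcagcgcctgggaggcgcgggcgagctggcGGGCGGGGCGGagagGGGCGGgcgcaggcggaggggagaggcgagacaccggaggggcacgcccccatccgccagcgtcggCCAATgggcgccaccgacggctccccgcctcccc

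The *Btg1* window held TATAAA at 26 bases before the start, CCAAT on the opposite strand at 80, and GGGCGG on the opposite strand at 131 and 68. *Btg2* held the 8-letter palindrome TGACGTCA at 166 bases before the start, CCAAT at 173 and 34, and GGGCGG at 115, 110 and 100, the first 2 of which overlap by 1 base. TGACGTCA was found in 1.55% of 32851 promoter windows of the same length, TATAAA in 12.4%, CCAAT in 33.8% and GGGCGG in 32.7%. Neither window held TTC and GAA with 3 or 4 bases between, the spacings bound by STAT proteins, which occurred in 7.02% and 5.85% of windows. Both windows were rich in G and C, at 65.2% in *Btg1* and 73.2% in *Btg2* against a median of 52.4%, with 21 and 27 CG dinucleotides against a median of 6. A match is a run of letters, and binding was not measured here.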

How the data were processed

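RNA Pol II ChIP-Seq libraries of Th2 cells were taken by condition from the sample labels, 1 library a condition. The authors used ELAND to align 36-nt reads to mm9, took out duplicates, kept 8.2 M alignments of every library and ran SICER against Input (150 bp windows and fragments, gaps up to 450 bp). The signal deposited by the authors is read here as the height of overlapping fragments at the highest point of each interval and, per gene, its mean over active regions, which are intervals merged over the 8 libraries of the file. The 8 per-sample columns and 8 tracks of libraries not analysed here were not used, although they can widen active regions.

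From these values the following was computed with Python 3.11.15, pandas 2.3.3, numpy 2.4.6 and scipy 1.17.1. Ratios of heights were taken between 4 pairs of libraries, with no pseudocount, and called above 1.4 or below 0.7 with an interval in the higher library. Exact Poisson and Clopper-Pearson intervals (95%) treat heights, summed over active regions, as counts. The Clopper-Pearson intervals alone were run on simulated Poisson counts, which cannot show whether peak heights behave as counts. The highest point is chosen by its height, which both kinds of interval leave out. Alternatives were another height, scaling, a pseudocount of 1, covered length, other limits and filters.

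Lines were named by the gene annotation of NCBIM37, because names in the gene table did not always fit their coordinates: 7728 lines by name and coordinates, and 3008 by an overlap of at least 0.5 of the longer model, which left 872 unnamed. The genes named are the family, genes within 100 kb, the 5 nearest in pattern, Parp14, cell type markers and, of each list, members past a limit in the same direction in both genotype comparisons and then the tallest by mean height up to 3. Other list members past a limit were named after their values were seen. The members and lists were chosen with earlier results of these data known. The results of 2 list genes are not reported here and are left out of the counts.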

Additional observations from a re-analysis of the deposited data

Results flagged for a closer look

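For *Btg1* and *Btg3* the same contrast pointed in opposite directions in the 2 states compared, each with 1 library a condition. The ratio of untreated to PJ34-treated cells was 1.19 in wild type and 0.988 in *Parp14*-/- for *Btg1*, where the second value stands for heights of 81 and 82. For *Btg3* it was 0.696 in wild type and 1.44 in *Parp14*-/-, and its wild-type to *Parp14*-/- ratio was 0.615 without PJ34 and 1.28 with it. The counting interval of each of these 6 ratios included 1, and the differences between them were not tested.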

How the results depend on the processing

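Scaling and a pseudocount of 1 kept each *Btg1* and *Btg2* ratio on its side of 1. The track heights of both genes equal their table heights, so that alternative is no test. With length covered by intervals, 2 ratios crossed 1. The *Btg2* ratio of *Parp14*+/+ to *Parp14*+/+ + PJ34 was 0.56 for height and 1.02 for length. The untreated genotype ratio of *Btg1* was 0.84 for height and 1.1 for length, but 0.916 with intervals within 1 kb added, a setting chosen after seeing the data. The counts of genes past 1.4 or 0.7 moved by under 1.5 times with a pseudocount of 1 or without asking for an interval. Asking for a height of at least 20 left, above and below the limits, 216 and 222 genes in the untreated genotype comparison, 242 and 135 with PJ34, 171 and 130 for PJ34 in wild type and 237 and 72 for PJ34 in *Parp14*-/- cells, since fewer genes were counted. The shares moved too. Below 0.7 lay 14.5%, 9.4%, 8.78% and 5.18% of such genes in the same order, against 9.96%, 5.17%, 9.90% and 5.0% without this filter. Above 1.4 lay 14.1%, 16.9%, 11.5% and 17.0%, against 12.2%, 22.3%, 6.69% and 14.2%. Limits of 1.2 and 0.83 gave 2103 and 1694, 3188 and 922, 1384 and 2010, and 2195 and 872 in the same order, because the limits are nearer to 1. Scaling to the median ratio gave 949 and 818 in the genotype comparison with PJ34, against 1691 and 392 as deposited, and 568 and 583 for PJ34 in *Parp14*-/- cells, against 971 and 343. The share of calls above 1.4 went from 81.2% to 53.7% and from 73.9% to 49.3% with it, and from 40.3% to 51.5% for PJ34 in wild type. *Btg2* is limited by its heights of 14 to 30. No paired analysis was run, and each condition had 1 library.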
